A study of Homo sapiens with 16 samples.

Results

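The genes described here encode steps of the pathway that carries the signal of insulin and insulin-like growth factors into the cell. They are the receptors INSR and IGF1R, the adaptors IRS1 and IRS2, the phosphoinositide 3-kinase (PI3K) subunits PIK3CA, PIK3CB and PIK3R1, the kinase AKT2 and the transcription factor FOXO1. These 9 of the 62754 genes in the deposited count table were taken by their symbols, and the rule uses no measured value. All 9 were among the 24515 genes with enough reads to be tested. The lowest count of any of them in a library was 431 reads (FOXO1) and the highest was 10719 reads (IGF1R).

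The samples were planar cultures of islets made in the dish from HUES8 (labelled HUES08), an established human embryonic stem cell line, labelled as wild type, and all 16 libraries carried the label of batch 1. Each culture was grown with the solvent DMSO or with 1 of 7 compounds added from stage 5 of the protocol until day 7 of stage 6, and each treatment had 2 libraries. The compounds were colchicine at 10 nM (a blocker of tubulin assembly), epirizole at 2.5 uM (an anti-inflammatory drug), Ly-294002 at 120 nM (a PI3K inhibitor), moxifloxacin at 1.1 uM (a fluoroquinolone antibiotic), rottlerin at 1.23 uM (used as a protein kinase C inhibitor), vardenafil at 125 nM (a phosphodiesterase 5 inhibitor) and rimonabant at 125 nM (a cannabinoid receptor antagonist). A computational tool had proposed them as compounds that may act on beta cell maturation. Nothing in the labels ties the 2 libraries of a treatment to separate differentiations, and p-values here rest on a spread that may be technical.

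Insulin and the insulin-like growth factors bind receptor tyrosine kinases, which phosphorylate the IRS adaptor proteins. Phosphorylated IRS proteins recruit PI3K, a dimer of a regulatory p85 subunit and a catalytic p110 subunit, and its lipid product brings AKT to the membrane to be activated. Active AKT phosphorylates FOXO proteins and keeps them out of the nucleus, so that genes activated by FOXO, among them INSR and IRS2 in several cell types, are transcribed when the signal is weak. In beta cells, IRS2 and FOXO1 are known for their part in beta cell mass and in keeping the cells' identity.

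FOXO proteins bind DNA with the core TGTTTAC. To show where these letters, or the related word TGTTTTG, stand in the start regions of the 9 genes, the RefSeq windows from 250 bases before to 50 bases after each annotated start (300 bases, GRCh38.p14, both strands) were searched. The 9 genes had 14 such windows, and each word was found in 1 of them. The sites are printed below 5′ to 3′ on the gene's own strand, with the word in capitals. The PIK3CA site lies at chr3:179148197-179148226 on the plus strand, with its word 149 bases before a RefSeq start at 179148357, and the IRS2 site lies at chr13:109786605-109786634 on the minus strand, with its word 40 bases before a RefSeq start at 109786583. Gene positions further on are those of GENCODE 29, whose starts differ: there the PIK3CA gene begins at 179148114, so that the word lies 94 bases past its start, while the IRS2 word still lies before the gene.
PIK3CA: agttcgttgttTGTTTACacgatgtgagcg
IRS2: gagtcacatgtTGTTTTGctcttcttagtt
Over all 35116 RefSeq windows of this length, 3.42% held TGTTTAC and 4.92% held TGTTTTG. The 2 words do not overlap each other in these sites, a match is a description of the letters only, and binding was not measured.

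The libraries differed in depth, in make-up and in how GC-rich genes were read. Totals ran from 23294377 to 30701868 reads, so that 3 reads, the limit that a count of 0 allows, correspond to 0.0977 to 0.129 CPM (reads scaled to the library total), which covers counting error only. The cultures differed in make-up: 11 endocrine markers, among them the granins CHGA and CHGB, summed to between 92.5 and 477 CPM per library, the 11 mesenchyme markers to 1015 to 2756 CPM and the 9 liver and gut markers to 5136 to 9871 CPM. Of 8 beta cell markers, 5 had a median under 1 CPM, INS had 17 to 180 reads and IAPP at most 1 read. The highest medians on that list were those of NKX6-1 (2.82 CPM) and PDX1 (40.8 CPM). Transcripts of INS and IAPP, which define beta cells, a main cell type of islets, were thus scarce, while PDX1 was well detected. Of markers of fat and muscle, tissues known for their insulin response, ADIPOQ and MYOD1 had at most 1 read and ACTA1 reached 36.1 CPM. The GC slope, the median deviation of the top 25% of genes by GC content minus that of the bottom 25% in log2 units, was lowest in the 2 DMSO libraries (-0.28 and -0.34) and highest in rimonabant library 2 (0.65), and the other 13 libraries lay between -0.17 and 0.16. Rimonabant library 2 therefore stands apart, and calls and medians under rimonabant are given with and without it.

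The 9 genes were all transcribed in every culture, and per kilobase of all annotated exons the receptors were the most abundant of them. Per kilobase of exon, TMM-normalised CPM over the 16 libraries averaged 24.1 ± 0.841 for IGF1R and 20.7 ± 2.75 for INSR, followed by PIK3R1 at 14.7 ± 1.64, IRS1 at 10.8 ± 0.835, PIK3CB at 9.20 ± 0.739, PIK3CA at 8.75 ± 0.842, AKT2 at 7.90 ± 0.818, IRS2 at 5.43 ± 1.03 and FOXO1 at 4.95 ± 1.10 (SD, n = 16). TMM scaling adjusts library sizes so that most genes stay level. Of the 8 neighbours in this order, PIK3R1 and IRS1 had ranges over the libraries that did not overlap, and the other 7 pairs overlapped. PIK3CB stood above PIK3CA in 11 of 16 libraries and IRS2 above FOXO1 in 8 of 16, so the order of these 2 pairs is not set beyond their spread. The order depends on the length used, most of all for AKT2. AKT2 has 15035 bases of exon in all annotated transcripts together and 5300 in the longest, and with the longest transcript its level was 22.4 per kilobase. With the coding length AKT2 came first at 82.3, followed by IGF1R at 81.8, PIK3R1 at 72.9 and INSR at 52.1.

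**Figure D1:**
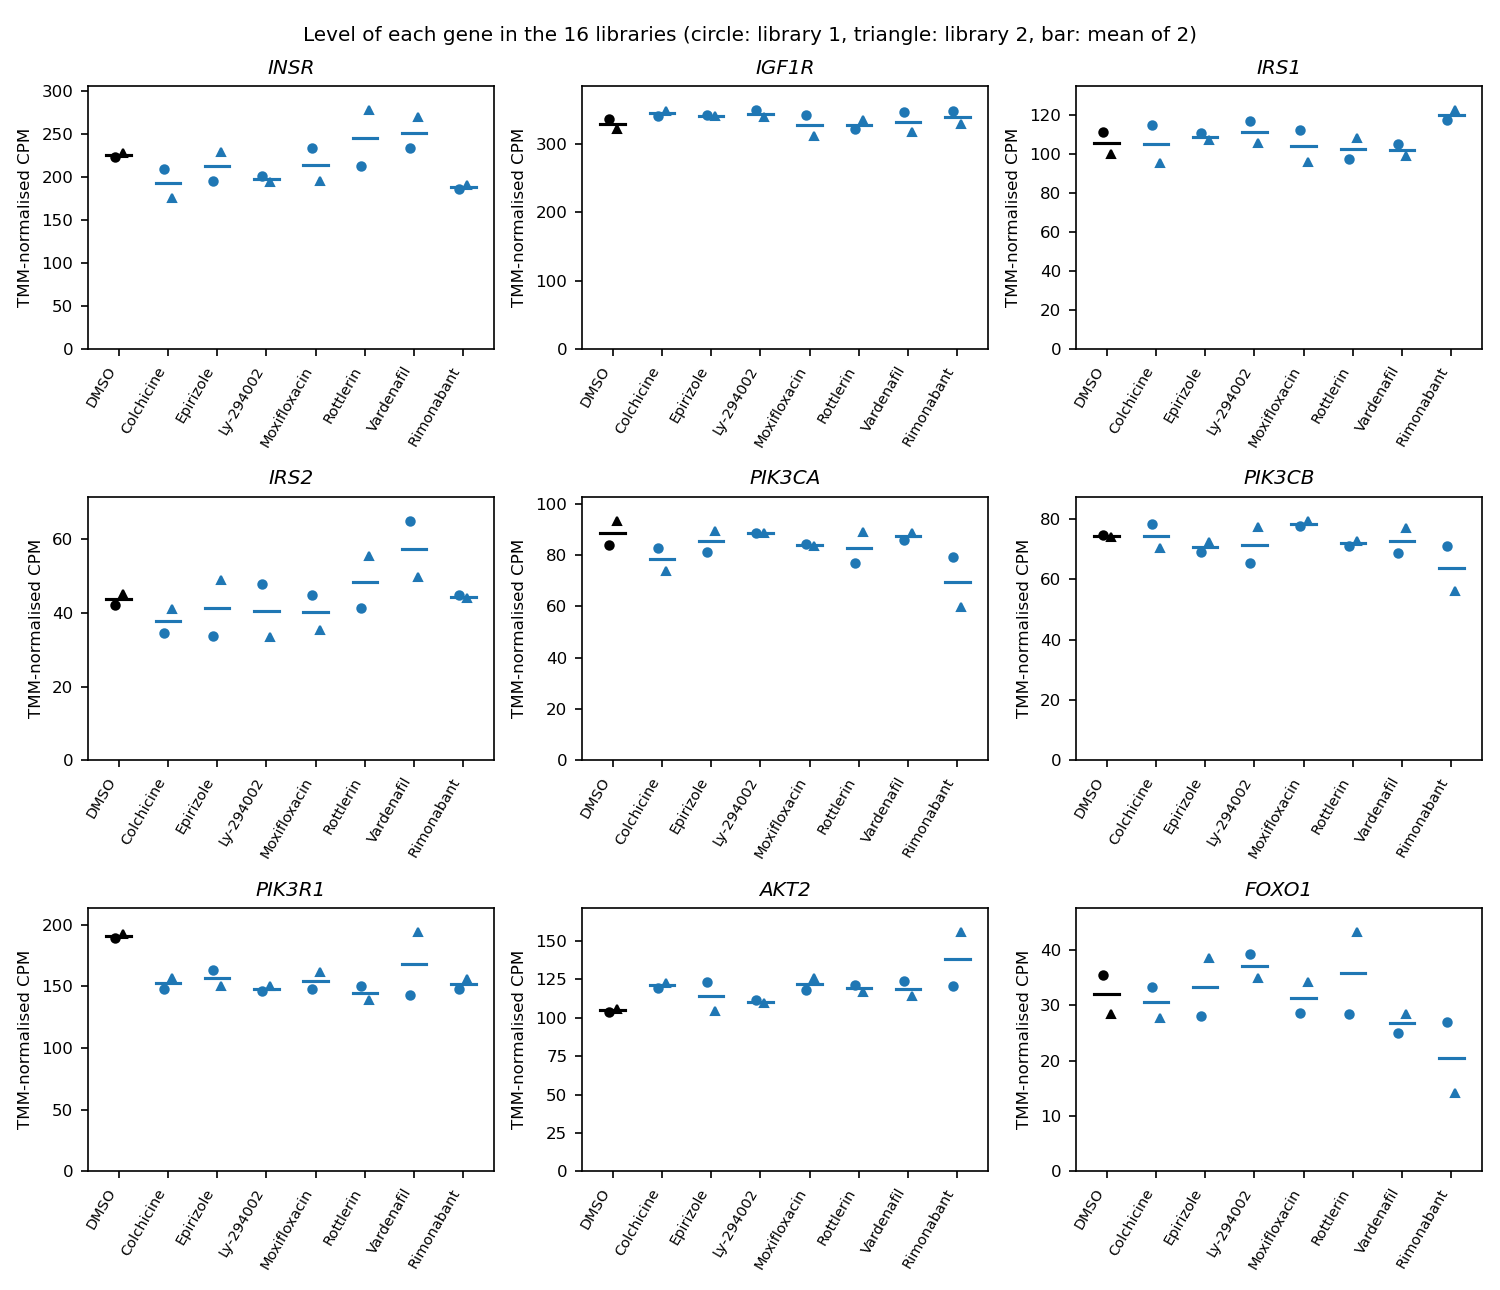
TMM-normalised CPM of the 9 genes (y axes, from 0) in the 16 libraries by treatment (x axes); circles are library 1, triangles library 2 and bars the mean of both, with DMSO in black. PIK3R1 in DMSO (188.7 and 192.4) lies above every treated library except vardenafil library 2 (194.0), and AKT2 in rimonabant library 2 (155.9) lies above all others.

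INSR encodes the insulin receptor (ENSG00000171105, chromosome 19, 7112255 to 7294034, minus strand, GRCh38, GENCODE 29) and did not pass the test with any compound. DMSO libraries held 222.8 and 227.7 TMM-normalised CPM. Levels were 209.1 and 176.1 with colchicine, 195.8 and 228.8 with epirizole, 201.3 and 194.4 with Ly-294002, 233.4 and 195.3 with moxifloxacin, 212.4 and 277.8 with rottlerin, 233.6 and 269.5 with vardenafil, and 185.9 and 190.6 with rimonabant. Both libraries of colchicine, Ly-294002 and rimonabant lay below both DMSO libraries, both vardenafil libraries lay above them, and the other 3 treatments overlapped DMSO. Of all tested genes, 19.5% lay below in this way with Ly-294002 and 26.4% with rimonabant. The shares for colchicine and vardenafil are not given here. The log2 differences from DMSO ran from -0.26 (rimonabant, SE 0.13, adjusted p = 0.238 in edgeR's quasi-likelihood test) to 0.16 (vardenafil, SE 0.13, adjusted p = 0.910). INSR varied more than most genes of its level, with a coefficient of variation of 13.3% over the 16 libraries against a median of 8.40% for genes within 2-fold of its level. In the joint test of all 7 compounds it had the lowest adjusted p of the 9 genes, 0.369 (unadjusted p = 0.0423).

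IGF1R encodes the receptor of insulin-like growth factors 1 and 2 (ENSG00000140443, chromosome 15, 98648539 to 98964530, plus strand) and was the steadiest of the 9 genes. Its 16 levels lay between 311.9 TMM-normalised CPM (moxifloxacin library 2) and 349.3 (Ly-294002 library 1), with a median of 339.3 and a coefficient of variation of 3.50%, against 8.35% for genes of like level. DMSO held 336.4 and 321.7. Differences from DMSO were -0.01 to 0.07 on the log2 scale, and with rimonabant, for one, the change was 0.04 (SE 0.08, adjusted p = 0.807). The ratio of INSR to IGF1R per kilobase was 0.675 in colchicine library 2, 0.883 and 0.944 in the DMSO libraries and 1.13 in vardenafil library 2.

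The adaptors did not change in any treatment by the test, and the 2 differed in how steady they were. IRS1, the adaptor best known for insulin action in muscle and fat (ENSG00000169047, chromosome 2, 226731317 to 226799759, minus strand), ranged from 95.8 TMM-normalised CPM in colchicine library 2 to 122.8 in rimonabant library 2, with a median of 107.9 and a coefficient of variation of 7.72%. In DMSO it was 111.3 and 100.03, and in rimonabant 117.7 and 122.8, both above DMSO, as for 26.8% of all genes. That difference was 0.19 (log2, SE 0.11, adjusted p = 0.312), the largest in size of the 7 for IRS1. The remaining 6 compounds overlapped DMSO, with differences of -0.05 to 0.08.

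IRS2, the adaptor known for its role in beta cell mass (ENSG00000185950, chromosome 13, 109752698 to 109786568, minus strand), spread more widely, with a coefficient of variation of 18.9% against 10.0% for genes of like level. DMSO libraries held 42.2 and 45.2 TMM-normalised CPM. Levels were 34.7 and 41.0 with colchicine, 33.7 and 49.1 with epirizole, 47.9 and 33.4 with Ly-294002, 45.0 and 35.3 with moxifloxacin, 41.4 and 55.4 with rottlerin, 65.0 and 49.6 with vardenafil, and 44.8 and 44.0 with rimonabant. Both vardenafil libraries lay above DMSO and both colchicine libraries below it, while the other 5 treatments overlapped it. The shares of all genes that did so with these 2 compounds are not given here. With Ly-294002 the share was 19.5% in each direction. Vardenafil minus DMSO was 0.39 (log2, SE 0.22, unadjusted p = 0.105, adjusted p = 0.890). As fitted, 4 of the 7 differences were below 0, and with an offset for GC content 6 of the 7 were, from -0.41 to 0.27. The ratio of IRS1 to IRS2 per kilobase had a median of 2.02, from 1.32 in vardenafil library 1 to 2.71 in colchicine library 1.

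The level of IRS2 was compared with the endocrine markers of the cultures. The endocrine score is the mean log2 CPM of the 10 of 11 endocrine markers with enough reads to be tested, all but SCG5. Over the 16 libraries the log2 level of IRS2 had a negative relation with this score, which did not pass the threshold after adjustment (Pearson's r = -0.627, permutation p = 0.00957, adjusted p = 0.0826 over 54 relations, Spearman's adjusted p = 0.121). With that score as a covariate, the joint test of the 7 compounds called IRS2 (adjusted p = 0.0343), beside 2.83% of all genes. With the score and an offset for GC content together, IRS2 was also called lower with colchicine, at -0.47 (adjusted p = 0.0271), beside 2.81% of all genes, and this setting was added after the data were seen. The endocrine marker sum was 154 to 283 CPM in DMSO and 92.5 to 285 CPM with colchicine. In the fit without either term, colchicine minus DMSO was -0.21 for IRS2 (SE 0.22, adjusted p = 0.698). In bulk samples, a smaller number of cells that express a gene and less of its RNA per cell cannot be told apart.

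PIK3CA and PIK3CB encode the catalytic subunits p110alpha and p110beta, the forms that most tissues use. PIK3CA (ENSG00000121879, chromosome 3, 179148114 to 179240093, plus strand) held 84.0 and 93.3 TMM-normalised CPM in DMSO, 82.9 and 74.0 with colchicine, 81.3 and 89.5 with epirizole, 88.5 and 88.4 with Ly-294002, 84.5 and 83.4 with moxifloxacin, 76.8 and 88.9 with rottlerin, 86.0 and 88.4 with vardenafil, and 79.2 and 59.8 with rimonabant. Rimonabant library 2 was the lowest of all. Rimonabant minus DMSO was -0.35 (log2, SE 0.12, adjusted p = 0.0831), and without rimonabant library 2 it was -0.16 (adjusted p = 0.611). All 7 differences were below 0, from -0.35 to -0.003, and with an offset for GC content 6 of the 7 were above 0, from -0.01 to 0.11. As fitted, 19.0% of tested genes were below DMSO with all 7 compounds, and the 7 comparisons share the same 2 DMSO libraries. PIK3CA has the lowest GC content of the 9 genes, 34.8%. Its exons share 3403 bases with those of KCNMB3 on the opposite strand, and as the strand setting of the counting is not given in the sources used here, reads of the 2 genes there cannot be told apart.

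PIK3CB (ENSG00000051382, chromosome 3, 138652699 to 138834938, minus strand) stayed close to DMSO with 6 of the 7 compounds. DMSO libraries held 74.6 and 74.1 TMM-normalised CPM, the lowest library was rimonabant 2 at 56.2 and the highest moxifloxacin 2 at 79.4, with a median of 72.6. Rimonabant library 1 held 71.2. Rimonabant minus DMSO was -0.22 (log2, SE 0.11, adjusted p = 0.243), and -0.07 without library 2 (adjusted p = 0.874). The other differences were -0.07 to 0.08, none past the threshold. With the offset for GC content all 7 differences were above 0, from 0.02 to 0.21, with rimonabant at 0.03, and none passed.

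Among the catalytic subunits the shares per kilobase of all annotated exons were even between PIK3CA and PIK3CB. With the length of the longest transcript their mean levels were 9.13 and 12.2 per kilobase, and with the coding length 25.9 and 22.5. The shares that follow use all annotated exons. PIK3CA made up 39.5% to 47.9% of the sum of PIK3CA, PIK3CB, PIK3CD and PIK3CG, and PIK3CB 42.9% to 47.8%. PIK3CD, the p110delta form known mainly from white blood cells, took 7.79% and 7.80% in DMSO, the 2 lowest values, and up to 15.7% in rimonabant library 2. PIK3CG, the p110gamma form of white blood cells, had 0 or 1 read in every library.

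PIK3R1, which encodes the p85alpha regulatory subunit that stabilises and restrains p110 (ENSG00000145675, chromosome 5, 68215720 to 68301821, plus strand), was lower than DMSO with every compound in the point estimates. DMSO libraries held 188.7 and 192.4 TMM-normalised CPM. Levels were 147.9 and 156.6 with colchicine, 162.8 and 150.1 with epirizole, 145.9 and 150.1 with Ly-294002, 147.6 and 161.2 with moxifloxacin, 150.1 and 139.1 with rottlerin, 142.8 and 194.0 with vardenafil, and 147.4 and 155.5 with rimonabant. Of the 14 treated libraries, 13 lay below both DMSO libraries, the exception being vardenafil library 2, and 7.45% of all tested genes had at least 13 of 14 below. The 7 comparisons share the same 2 DMSO libraries, so they are not 7 separate observations.

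The difference for PIK3R1 was -0.40 with rottlerin (log2, SE 0.11, adjusted p = 0.128), -0.36 with Ly-294002, -0.33 with rimonabant (adjusted p = 0.0829), -0.32 with colchicine, -0.30 with moxifloxacin, -0.28 with epirizole and -0.18 with vardenafil. None passed the threshold after adjustment over all genes, and 6 of the 7 had an unadjusted p under 0.05. Being below DMSO in all 7 fitted differences was true of 19.0% of tested genes. With the GC offset all 7 stayed below 0, from -0.30 to -0.09. Vardenafil minus DMSO was -0.41 without vardenafil library 2 and 0.03 without library 1.

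A comparison of the mean of the 7 compounds with DMSO was added after this pattern in PIK3R1 had been seen, and it called 0 of the 9 genes (0% of all genes at an adjusted p under 0.05). PIK3R1 differed by -0.31 (SE 0.08, unadjusted p = 0.00196, adjusted p = 0.107), 2 of the 9 genes had an unadjusted p under 0.05 against 16.6% of all genes, and DESeq2 gave PIK3R1 an adjusted p of 0.0470 and called 2.79% of all genes. With the GC offset the difference was -0.18 (unadjusted p = 0.0623). The ratio of PIK3R1 to the summed catalytic subunits per kilobase depends on the length used. With the longest transcript, mean levels of PIK3R1, PIK3CA and PIK3CB were 22.6, 9.13 and 12.2 per kilobase. With the coding length they were 72.9, 25.9 and 22.5. With all annotated exons the ratio was 0.881 and 0.855 in DMSO, with a median of 0.698 over the 16 libraries. Its low was 0.618 in rottlerin library 2 and its high was 0.905 in rimonabant library 2. In that last library PIK3CA and PIK3CB were at their lowest, 59.8 and 56.2 TMM-normalised CPM, with PIK3R1 at 155.5.

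**Figure D2:**
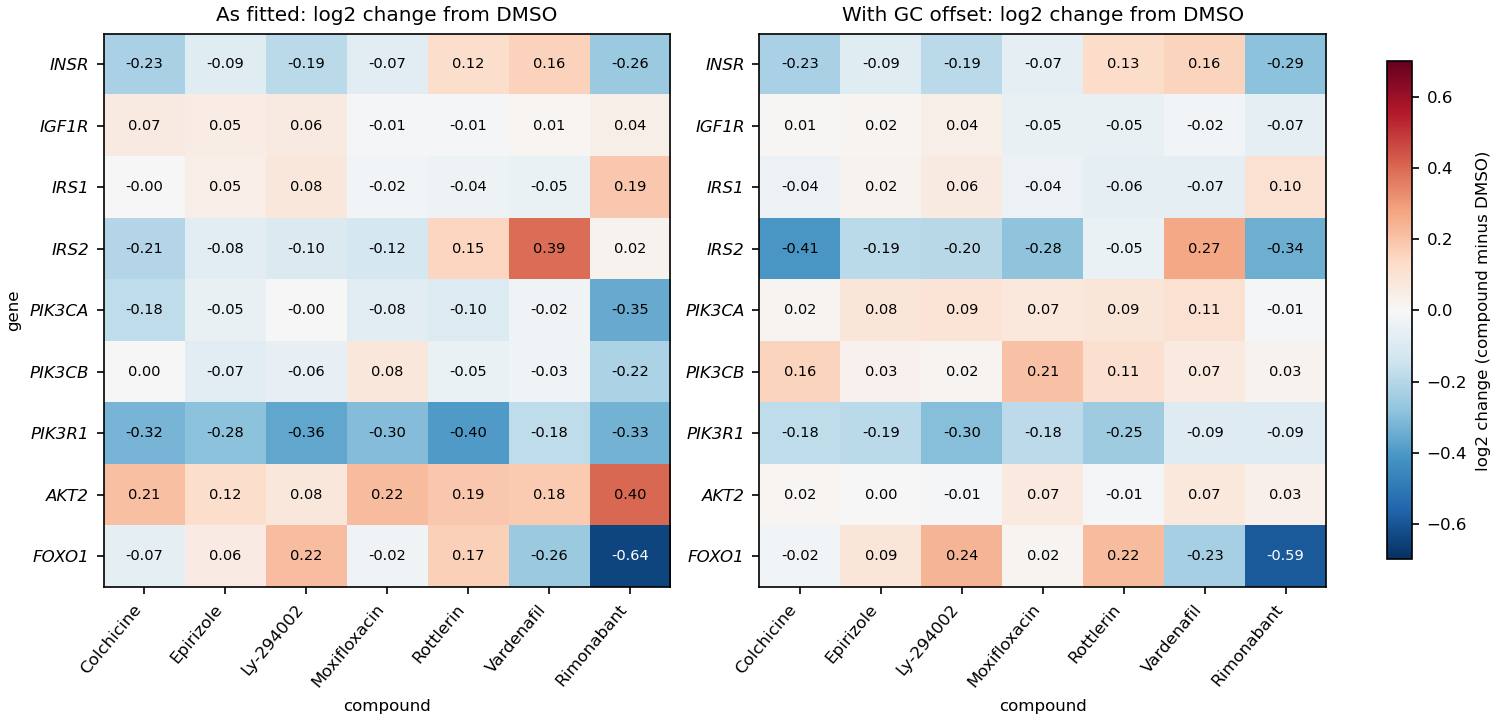
Log2 difference of each of the 9 genes (rows) between each compound (columns) and DMSO, as fitted on the left and with the per-library offset for GC content on the right; red is above DMSO and blue below, on 1 scale from -0.7 to 0.7. PIK3R1 is below 0 in all 7 columns on both sides, while the AKT2 row runs from 0.08 to 0.40 on the left and from -0.01 to 0.07 on the right.

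AKT2 encodes the AKT form most tied to insulin-driven glucose uptake (ENSG00000105221, chromosome 19, 40230317 to 40285536, minus strand), and it was the 1 gene of the 9 that passed the test in any comparison. It was higher with rimonabant. DMSO libraries held 104.1 and 105.6 TMM-normalised CPM and rimonabant libraries 120.7 and 155.9, or 104.8 ± 1.12 against 138.3 ± 24.9 (SD, n = 2 each), a log2 difference of 0.40 (SE 0.11, 95% interval 0.16 to 0.64, adjusted p = 0.0411). Both rimonabant libraries lay above both DMSO libraries, as for 26.8% of all genes, but they also lay further apart than any other pair. Rimonabant called 7.80% of all tested genes, 5.03% as higher and 2.77% as lower, so 1 of 9 is near that background.

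The call for AKT2 was lost in several other fits. Without rimonabant library 2 the difference was 0.20 (adjusted p = 0.472) and without library 1 it was 0.57 (adjusted p = 0.00271). Of all genes, 0% were called without library 2 and 14.8% without library 1. Without DMSO library 1 the adjusted p was 0.170, and without DMSO library 2 it was 0.209. With the GC offset the AKT2 difference was 0.03 (adjusted p = 0.925), and no gene at all (0%) was called in that comparison.

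With the other 6 compounds AKT2 held 119.4 and 122.8 (colchicine), 123.6 and 104.7 (epirizole), 111.4 and 109.7 (Ly-294002), 118.5 and 126.2 (moxifloxacin), 121.7 and 116.9 (rottlerin) and 124.2 and 114.0 (vardenafil). All 7 differences were above 0, from 0.08 to 0.40, and 13 of 14 treated libraries lay above both DMSO libraries, against 7.57% of tested genes with at least 13. Of all genes, 19.2% were above DMSO with all 7 compounds. With the GC offset 5 of the 7 differences were above 0, and their range was -0.01 to 0.07.

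FOXO1, the transcription factor at the end of the chain that AKT holds in check (ENSG00000150907, chromosome 13, 40469953 to 40666597, minus strand), had the lowest median TMM-normalised CPM of the 9 genes and was the most variable. DMSO libraries held 35.4 and 28.4 TMM-normalised CPM. Levels were 33.3 and 27.7 with colchicine, 27.9 and 38.5 with epirizole, 39.2 and 34.9 with Ly-294002, 28.5 and 34.2 with moxifloxacin, 28.4 and 43.2 with rottlerin, 24.9 and 28.5 with vardenafil, and 26.9 and 14.1 with rimonabant. Both rimonabant libraries lay below DMSO, as for 26.4% of all genes, and the other 6 treatments overlapped it. The coefficient of variation was 22.3%, against 10.98% for genes of like level.

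Rimonabant minus DMSO was -0.64 for FOXO1 (log2, SE 0.29, adjusted p = 0.199) and did not pass the threshold. It was -0.25 without rimonabant library 2 (adjusted p = 0.771) and -1.18 without library 1 (adjusted p = 0.0160). With the GC offset the FOXO1 estimate was -0.59. The offset acts on a gene by its GC content, and that of FOXO1, 46.4%, lies near the median of 47.8% over tested genes. For PIK3CA it is 34.8% and for AKT2 58.3%. The offset could therefore move FOXO1 little, and it is no test of the FOXO1 estimate. FOXO1 made up 7.97% to 24.2% of the per-kilobase sum of FOXO1, FOXO3, FOXO4 and FOXO6, and FOXO3 53.9% to 63.0%, so FOXO3 was the main FOXO transcript in every library. In the annotation FOXO1 shares 269 exon bases with LINC00598 on the same strand.

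Ly-294002 is the 1 compound among the 7 known to act on PI3K itself, so the transcripts under it were compared with DMSO and with the other compounds. PI3K activity was not measured, so whether the 120 nM used here inhibited it in these cultures is not known. The comparison is therefore of the treatment, not of a shown inhibition. Against DMSO Ly-294002 called 0 of the 9 genes and 0% of all genes, and DESeq2 also called 0 genes. At an unadjusted p under 0.05 there was 1 of the 9 genes, PIK3R1, and 4.69% of all genes. Both libraries of Ly-294002 lay below both of DMSO for 2 of the 9 genes (INSR and PIK3R1; 19.5% of all genes) and above for 2 (IGF1R and AKT2; also 19.5%).

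PIK3R1 differed by -0.36 under Ly-294002 (log2, SE 0.11, 95% interval -0.61 to -0.12, unadjusted p = 0.00576, adjusted p = 0.969). FOXO1 differed by 0.22 (95% interval -0.41 to 0.85) and INSR by -0.19 (-0.47 to 0.09). For PIK3CA, which encodes a direct target of the compound, the difference was -0.003 (-0.26 to 0.25). The intervals show the sizes that these 2 libraries a group leave possible. The remaining 5 genes lay between -0.10 (IRS2) and 0.08 (AKT2 and IRS1).

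Against the mean of the other 6 compounds, which uses no DMSO library, Ly-294002 called 0 of the 9 genes and 0% of all genes. None of the 9 had an unadjusted p under 0.05, against 7.57% of all genes, and DESeq2 called 15 genes of the genome and none of the 9. The largest difference was in FOXO1, 0.34 higher with Ly-294002 (95% interval -0.12 to 0.81). AKT2 was lower by this estimate, at -0.14, and INSR and IRS2 were both at -0.13. PIK3R1, the gene farthest from DMSO under Ly-294002, differed from the other compounds by -0.06 (95% interval -0.25 to 0.12).

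For the other 5 compounds none of the 9 genes passed the threshold. The share of all genes called was 0.196% for colchicine, 0.00816% for rottlerin and 0% for epirizole, moxifloxacin and vardenafil, and the joint test of any compound called 0.00408%, 1 gene and none of the 9. At an unadjusted p under 0.05 there was 1 of the 9 genes, PIK3R1, with each of colchicine, epirizole, moxifloxacin and rottlerin and 0 with vardenafil, against 17.5%, 5.26%, 11.9%, 14.8% and 5.22% of all genes. In the joint test 12.9% of all genes had such a p, with INSR among them. Over the same comparisons DESeq2 called none of the 9 genes.

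Under rimonabant 4 of the 9 genes (PIK3CA, PIK3R1, AKT2 and FOXO1) had an unadjusted p under 0.05, against 24.8% of all genes. Both its libraries lay below both DMSO libraries for 5 of the 9 (INSR, PIK3CA, PIK3CB, PIK3R1 and FOXO1; 26.4% of all genes) and above for 2 (IRS1 and AKT2; 26.8%). The median of the 9 differences was -0.22, against 0.004 over all genes, and -0.07 with the GC offset. Without rimonabant library 2 the median of the 9 was -0.07 and that of all genes -0.02, and 1 of the 9, PIK3R1, had an unadjusted p under 0.05, against 11.7% of all genes. Without library 1 the median of the 9 was -0.24, and 4 of them (PIK3CA, PIK3CB, AKT2 and FOXO1) had such a p, against 28.3%.

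The 9 differences under rimonabant ran with the GC content of the genes. From 34.8% (PIK3CA) to 58.7% (IRS2), the Spearman correlation of difference and GC content was 0.717 across the 9 genes, which are not independent replicates, and 0.574 over the 23352 genes with a known GC content. With the offset these were -0.05 and 0.0008. Without rimonabant library 2, and with no offset, they were 0.617 and 0.368. The relation was not particular to rimonabant. Across the 9 genes the correlation, as fitted, was above 0 with each other compound against DMSO, from 0.167 (Ly-294002) to 0.700 (rottlerin). Over all genes with a known GC content it ran from 0.238 (Ly-294002) to 0.386 (rottlerin). For AKT2 the relation also held across libraries. Its log2 level ran with the GC slope at r = 0.947 (permutation p = 2e-05, adjusted p = 0.00081 over 54 relations, Spearman's rho 0.821, adjusted p = 0.00756). Such permutations exchange all 16 libraries freely and ignore which of them share a treatment, so the p-values may be too small. The r was 0.857 without DMSO library 2 and rimonabant library 2, the 2 farthest from the median slope.

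PIK3CA ran the opposite way, at r = -0.900 (permutation p = 3e-05, adjusted p = 0.00081, rho -0.841, adjusted p = 0.00756), and at -0.655 without the same 2 libraries. These 2 were the only genes of the 9 whose relation with the GC slope passed, both in Pearson's and in Spearman's form. The slope is itself the difference between GC-rich and GC-poor genes, and GC content is 58.3% for AKT2 and 34.8% for PIK3CA. Such a relation is therefore partly built in for genes at either end, though IRS2, at 58.7%, had r = -0.122. The share of all genes with such a relation was not computed. FOXO1 had r = -0.709 (permutation p = 0.0108, adjusted p = 0.0826), which was -0.439 without the 2 libraries and to -0.259 without rimonabant library 2 alone, so it rests on that library. None of the 9 relations with the endocrine score passed by permutation. Closest in Pearson's form were IRS2 (r = -0.627, adjusted p = 0.0826) and IGF1R (r = -0.600, adjusted p = 0.0919). Closest in Spearman's form was PIK3R1 (rho 0.647, adjusted p = 0.0606), whose Pearson's r was 0.485 (adjusted p = 0.178).

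**Figure D3:**
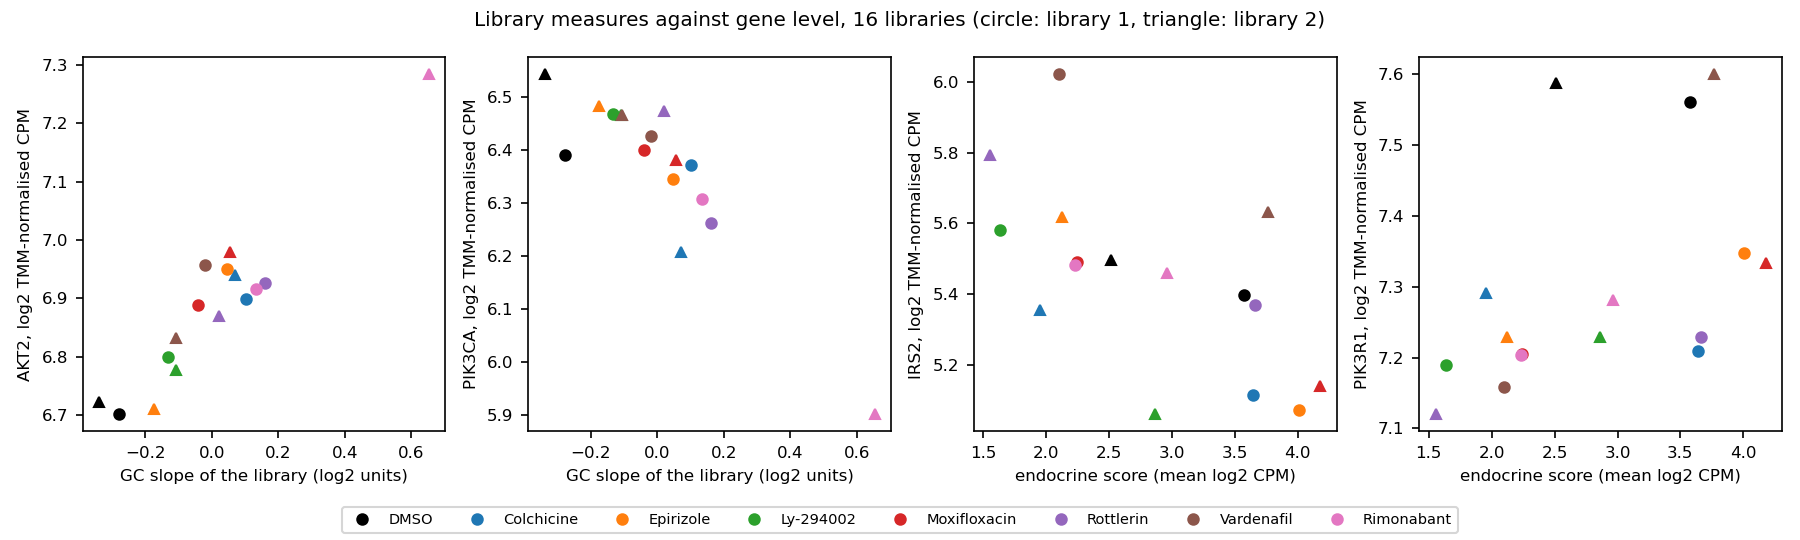
Log2 TMM-normalised CPM (y axes) of AKT2 and PIK3CA against the GC slope of each library, and of IRS2 and PIK3R1 against its endocrine score (x axes), for 16 libraries coloured by treatment, circles for library 1 and triangles for library 2. AKT2 is higher and PIK3CA lower at higher GC slopes (r = 0.947 and -0.900) with rimonabant library 2 at the far right, whereas the points for IRS2 and PIK3R1 scatter widely (r = -0.627 and 0.485).

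Among the 36 pairs of the 9 genes, PIK3CA and AKT2 ran against each other (r = -0.860, adjusted p = 0.00522, rho -0.718, adjusted p = 0.0406, over 16 libraries by permutation), at -0.631 without the 2 farthest libraries. Both genes also ran with the GC slope of the libraries, in opposite directions (r = -0.900 for PIK3CA and 0.947 for AKT2). A relation of the pair apart from that slope was not tested. PIK3CA with FOXO1 (r = 0.798) and AKT2 with FOXO1 (r = -0.784) each had an adjusted permutation p of 0.0328 for r and not for rho (0.0606 and 0.0525), and without the 2 farthest libraries r was 0.381 and -0.432. The receptor INSR and the adaptor IRS2 ran together by rank (rho 0.706, permutation, adjusted p = 0.0406) and at r = 0.608 (adjusted p = 0.0826). FOXO1 had r = 0.329 with INSR (permutation, adjusted p = 0.479) and r = -0.033 with IRS2 (adjusted p = 0.925). A cause of the relation between INSR and IRS2 was not tested.

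As a description over the 16 libraries, without a test, the genes of 17599 most alike to each of the 9 by Pearson's r were found, 2 for each gene except PIK3CA, for which 1 is given. They were SAT2 (0.932) and ADCY1 (0.929) for INSR, TPM1 (0.808) and PVT1 (0.804) for IGF1R, and PEMT (0.772) and CNTROB (0.771) for IRS1. For IRS2 they were PFKFB4 (0.935) and GAPDH (0.931), both genes of glycolysis. For the kinase subunits they were NFAT5 (0.941) for PIK3CA, PLEKHA3 (0.931) and NDUFB4 (0.900) for PIK3CB, and MTUS1 (0.838) and SI (0.827) for PIK3R1. AKT2 was most like PCSK4 (0.957) and POLRMT (0.956), and FOXO1 most like ZDHHC17 (0.953) and AASS (0.952). Library depth, GC slope and culture make-up are shared by all points of such a comparison.

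Beyond the 9 genes, 7 lists held 86 other genes of the pathway and its targets, of which 79 were tested. The ligands were present unevenly: IGF2 ranged from 1349 to 2025 CPM, IGF1 from 5.37 to 25.4 CPM and INS from 0.643 to 6.37 CPM. IGF2R, which clears IGF2, lay at 562 to 655 CPM, and the adaptor IRS4 at 0.229 to 1.27 CPM. SLC2A4, the insulin-regulated glucose transporter of muscle and fat, reached 5.23 CPM.

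With rimonabant 7 of the 79 genes rose and 5 fell, and with the other 6 compounds, with Ly-294002 against the other compounds and with the mean of the 7 compounds 0 of the 79 passed. Of all tested genes 5.03% were called higher and 2.77% lower with rimonabant, beside 8.86% and 6.33% of the 79. None of these calls held without rimonabant library 2, without DMSO library 1 or without DMSO library 2, fits in which 0% of all genes were called, and without rimonabant library 1 there were 14 higher and 11 lower of 80 tested, beside 14.8% of all genes. Without rimonabant library 2, 8 of the 79 were higher and 7 lower at an unadjusted p under 0.05, against 11.7% of all genes in either direction.

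By list, 1 of 9 tested ligands and binding proteins rose (median difference -0.09), 1 of 11 other receptors and adaptors fell (0.01), 1 of 8 other PI3K subunits rose (-0.11), 2 of 12 other kinases rose and 2 fell (0.14), 2 of 13 brakes rose and 1 fell (0.11), 1 of 9 other FOXO factors and effectors rose (0.33) and 1 of 17 FOXO targets fell (-0.16), beside a median of 0.004 over all genes. In lists of 8 to 17 genes a single call is already a larger share than the 5.03% and 2.77% of all genes. Without rimonabant library 2 no list held a call, and the medians in the same order were 0.04, -0.01, -0.14, 0.11, 0.11, 0.16 and -0.11, with -0.02 over all genes. With all libraries, the genes with the smallest p that rose were PIK3CD (0.68, adjusted p = 0.0180), BAD, a promoter of cell death that AKT inhibits (0.69, adjusted p = 0.0195), AKT1 (0.54, adjusted p = 0.0177), RPTOR, a subunit of the mTOR complex 1 (0.52, adjusted p = 0.0198), TSC2, a brake on mTOR (0.49, adjusted p = 0.0259), and INPPL1, a lipid phosphatase (0.45, adjusted p = 0.0205). RICTOR, a subunit of the mTOR complex 2, fell by 0.45 (adjusted p = 0.0274). Both genes that promote the pathway, such as AKT1, and genes that brake it, such as TSC2, were among those that rose. Another 4, named after their values were seen, were IGFBP2, which rose, and SOS1, RPS6KB1 and KLHL24, which fell. Without rimonabant library 2 the differences of these genes kept their sign, PIK3CD being at 0.70 (adjusted p = 0.171), AKT1 at 0.36 (adjusted p = 0.249) and RICTOR at -0.28 (adjusted p = 0.309).

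The same division by GC content was seen in these lists. The 8 genes that rose, AKT2 included, had a GC content of 57.1% to 66.3%, and the 5 that fell 36.5% to 38.6%, against a median of 47.8% over tested genes. As fitted, their differences were 0.40 to 0.69 and -0.53 to -0.38, and with the GC offset -0.04 to 0.35 and -0.23 to -0.10. Of these 13 genes PIK3CD had the largest difference with the offset, 0.35, without passing the threshold. The median over the 79 genes was -0.02 under rimonabant, near the 0.004 of all genes.

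**Figure D4:**
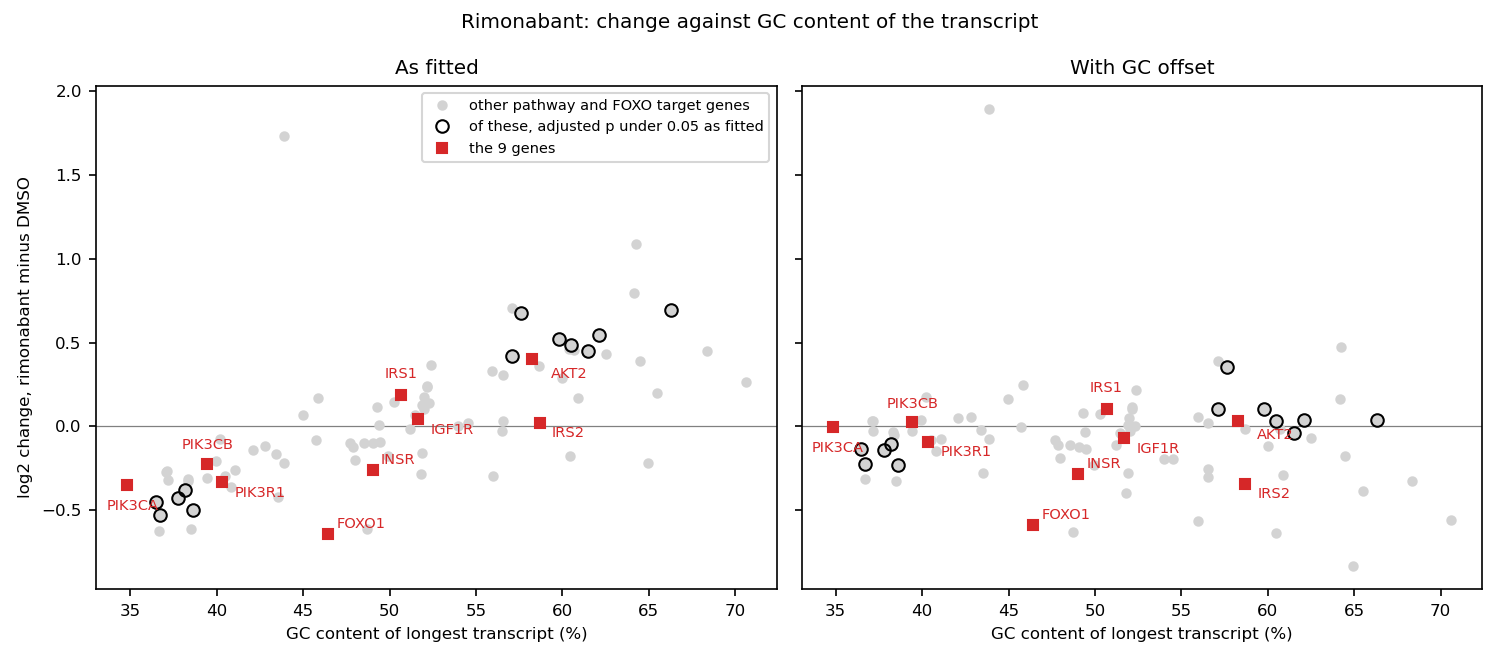
Log2 difference between rimonabant and DMSO (y axis) against the GC content of the longest transcript in percent (x axis) for the 9 genes (red squares) and the other tested genes of the pathway and FOXO target lists (grey, circled where the adjusted p was under 0.05 as fitted), as fitted on the left and with the GC offset on the right. On the left the points climb from PIK3CA (-0.35) to AKT2 (0.40), on the right both lie near 0 (-0.01 and 0.03), and FOXO1 lies low in both (-0.64 and -0.59).

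Where no list gene passed, those among the 3 with the smallest p that are reported here were as follows. With Ly-294002 they were IGFBP3, a carrier of insulin-like growth factors (-0.44), BCL6, a transcription repressor that FOXO proteins activate (-0.32), and IGF2 (-0.34), each with an adjusted p of 0.969. With rottlerin they were IGFBP3 (-0.68, adjusted p = 0.0657), SOCS3, an inhibitor of receptor signalling (0.50, adjusted p = 0.116), and the adaptor SHC1 (0.35, adjusted p = 0.121). With colchicine PIK3CD was at 0.54 (adjusted p = 0.0920).

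With moxifloxacin the 3 were PIK3CD (0.68, adjusted p = 0.294), IGF1 (-1.27, adjusted p = 0.342) and AKT1 (0.31, adjusted p = 0.345). Epirizole gave IGF2 (-0.32), RPS6KB1 (-0.20) and GSK3A (0.22), and vardenafil gave IGFBP3 (-0.47) and IGFBP2 (0.31), with adjusted p of 0.901 and 0.890. In the comparison of Ly-294002 with the other compounds IGFBP4 was at 0.45 and GADD45A, a FOXO target in the DNA damage response, at -0.34 (lowest adjusted p = 0.640). For the mean of the 7 compounds minus DMSO, PIK3CD was at 0.43 (adjusted p = 0.105) and IGFBP3 at -0.36 (adjusted p = 0.128).

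IGFBP3 lay below DMSO and PIK3CD and AKT1 above it with all 7 compounds, as PIK3R1 and AKT2 did, and again the DMSO libraries are the same 2 in each. Of all tested genes, 19.0% lay below and 19.2% above with all 7. With the GC offset IGFBP3 was below (-0.68 to -0.11) and PIK3CD above (0.10 to 0.54), while AKT1 spread over both sides of 0 (-0.10 to 0.11). The GC content of IGFBP3, 49.5%, lies near the median of 47.8% over tested genes, so the offset could move it little. The mesenchyme marker sum, given here because insulin-like growth factors and their binding proteins are also made by mesenchyme, (11 of 11 markers detected in every library) was 2081 to 2190 CPM in DMSO, 1357 to 1589 with colchicine, 1704 to 2449 with epirizole, 1918 to 2756 with Ly-294002, 2057 to 2174 with rimonabant, 1217 to 1525 with rottlerin, 1015 to 1693 with moxifloxacin and 1397 to 2051 with vardenafil, and its part in these differences was not tested.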

How the data were processed

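Per the labels' protocols, whole cultures were lysed for RNA, ribosomal RNA was depleted, libraries came from the KAPA RNA HyperPrep kit, and both ends were sequenced. The tools named there for quality, trimming, alignment, duplicates and assembly are FastQC 0.11.8, Trimmomatic 0.38, STAR 2.7.1a, Picard 2.20.4 and StringTie 2.0.4. The deposited values are raw counts per gene, made by the authors with featureCounts 1.6.0 or HTSeq, per the labels, on GRCh38, per the submitters' processing notes. Which annotation was counted, with which strand setting, and how duplicates and multiply mapped reads were handled is not given in the sources used here.

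The 16 libraries of 8 groups were taken from the treatment labels. In R 4.3.3 with edgeR 4.0.16, filterByExpr kept 24515 genes with 99.92% of the reads, libraries were scaled by TMM, and 1 fit with 8 residual degrees of freedom gave two-sided quasi-likelihood F tests with robust moderation, with Benjamini-Hochberg adjustment over these genes and a threshold of 0.05 (called). Log2 differences are compound minus DMSO, or as stated. Levels per kilobase divide by the union of exons in GENCODE 29. GC content is that of the longest transcript there, known for 95.3% of tested genes. The GC offset removes each library's LOWESS trend (span 0.3) of log2 CPM with GC content. Correlations used 100000 permutations of the libraries, two-sided, in NumPy 2.4.6. All 16 libraries were exchanged freely, as if independent, without regard to the 2 libraries of a treatment. Alternatives were DESeq2 1.42.0, RLE and upper-quartile scaling, no low-count filter, a replicate block, the GC offset, the endocrine score as covariate, only the groups compared, and each library left out. The scripts were checked on simulated counts.

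The 9 genes and the lists were chosen with earlier results of these data known. All 9 genes are described. Of the lists, at most 8 genes past the threshold per comparison were named by smallest p, or the 3 with the smallest p where none passed. Some genes that these rules or the search for like patterns selected are not reported here, and the counts include them. Single genes named for their shares were chosen after their values were seen. Replicates were compared by chi-square over genes, and the 2 libraries of a group differed by 7.39 to 25.6 per degree of freedom, so no pair was 1 library deposited more than once. Depth sets a floor of 3 reads, which covers counting error only, since no molecular identifiers are named and PCR copies are not independent molecules.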

Additional observations from a re-analysis of the deposited data

How the results depend on the processing

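Over 1458 values of the 9 genes under other settings, 1305 kept their direction and their side of the threshold, 127 that were not called changed sign, 8 lost a call, 18 gained one, and 0 called values reversed. For rimonabant, where 1 gene was called, the count was 0 with upper-quartile scaling (AKT2 adjusted p = 0.0505), with a replicate block (0.0624), with only the groups compared (0.133), and with the GC offset alone or together with the endocrine score. It was 3 without the low-count filter (PIK3R1, AKT2 and FOXO1; 6.01% of all genes) and 3 with the endocrine score (PIK3CA, PIK3R1 and AKT2; 14.7% of all genes, against 7.80% in the reported fit), and 0 to 4 when 1 library was left out: 0 without DMSO 1, DMSO 2 or rimonabant 2 and 4 without rimonabant 1 (PIK3CA, PIK3CB, AKT2 and FOXO1; 14.8% of all genes). Of the other pathway genes, 12 were called with rimonabant, and, in settings chosen after seeing the data, 19 without the filter, 22 with the endocrine score, 1 with the score and the GC offset, 0 with the GC offset alone or with only the groups compared, and 0 to 25 when 1 library was left out. For rottlerin, with 0 called, the count was 1 (PIK3R1) without the filter (2.41% of all genes) and with the endocrine score (adjusted p = 0.0485; 3.50%). For the joint test, with 0 called, it was 3 without the filter (INSR, IRS2 and FOXO1; 6.76% of all genes) and 1 (IRS2) with the endocrine score alone (2.83%) or with the GC offset (0.730%). For the mean of the 7 compounds, with 0 called, it was 1 (PIK3R1) with DESeq2 (2.79% of all genes), without the filter (adjusted p = 0.0140; 2.50%) and with the endocrine score (0.0335; 4.53%). For colchicine, with 0 called, it was 1 (IRS2) with the GC offset and the endocrine score together (2.81% of all genes), a setting chosen after seeing the data. The GC offset by its construction removes differences that run with GC content, and for the other settings the cause was not tested. Each count for the other comparisons was 0 under every setting, 0 to 0 when 1 library was left out included. With 1 library left out, the lone library is assumed to vary like the other groups. Library numbers 1 and 2 did not pair the samples: over 28 pairs of groups the correlation of deviations ran from -0.283 to 0.226, over 0.1 in 5 and under -0.1 in 9. The replicate block left 89 of 90 values as they were and ended the AKT2 call with rimonabant. Of genes in all, DESeq2 called 904 with colchicine, 656 with rottlerin, 2868 with rimonabant, 58 with moxifloxacin and 2 with vardenafil. Scaling moved the median of all genes by at most 0.0248 (log2). Levels per kilobase depend on the length, AKT2 being at 82.3 with the coding length. The 2 libraries a group limit the precision, which the 95% intervals show.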
